A study of Homo sapiens with 24 samples.

Results

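The transition from G2 into mitosis is driven by a small set of kinases and phosphatases, and 10 of their genes were followed here through RNA-seq of A549 cells, a human lung adenocarcinoma line. The members were chosen by symbol, as activating kinases and their cofactors (PLK1, AURKA, BORA, TPX2), the Greatwall kinase MASTL, the phosphatases CDC25A, CDC25B and CDC25C, and the inhibitory kinases WEE1 and PKMYT1. They make up 10 of the 58721 genes with a count in each of 24 libraries, and all 10 passed the filter on low counts in every comparison. A549 cells received 25 nM of siRNA against MYBL2 (siMYBL2, n = 4), FOXM1 (siFOXM1, n = 4) or both together (siBoth, n = 3). Scrambled siRNA served as the control of the single knockdowns (siControl, n = 4) and, in a separate set, of the double knockdown (siControl_Both, n = 3). Other A549 cells were given FDI-6, a compound known to block DNA binding by FOXM1, at 20 µM for 24 h (FDI6, n = 3), beside their own controls (control_FDI6, n = 3), which the study's list of comparisons names as DMSO. All libraries came from poly(A) RNA of the same line, the siRNAs were commercial reagents transfected with DharmaFECT1, and the sources used here do not give the time between transfection and harvest or whether the dose in siBoth is per siRNA. The siMYBL2 and siFOXM1 libraries share the same 4 siControl libraries, so their values are given side by side and their likeness is not read as a result.

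Mitosis starts when CDK1 bound to cyclin B becomes active. WEE1 and PKMYT1 phosphorylate CDK1 and hold it back, and the CDC25 phosphatases remove these phosphates. BORA helps Aurora A (AURKA) to activate PLK1, which in turn marks WEE1 for destruction and activates CDC25C, while TPX2 binds and activates Aurora A on the spindle. MASTL acts on the opposite side of the balance, since through ENSA and ARPP19 it switches off the phosphatase PP2A-B55 that would undo the work of CDK1. Many G2/M genes are repressed in resting cells by the DREAM complex and switched on late in the cycle by MYBL2 bound to MuvB and by FOXM1, through a short promoter motif known as the cell cycle genes homology region (CHR), often beside CCAAT boxes bound by NF-Y.

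The promoters of 4 members are printed because they show how those letters are placed. They are the members with a CHR core (TTTGAA) among the 6 that had a promoter window. Of these 4, 3 were lower by the adjusted p in both siMYBL2 and siBoth (PLK1, BORA and MASTL), and 1 passed in no treatment in the main fit (CDC25C). CDC25B, with no TTTGAA in any of its windows, was also lower in both (edgeR adjusted p = 0.000946 in siMYBL2 and 0.0155 in siBoth). Whether the letters go with the changes was not tested. CDC25C did pass in siMYBL2 with the replicate number added to the fit as a block, and in FDI6 with upper-quartile scaling. RefSeq promoter windows (GRCh38.p14, 250 bases before to 50 bases after a transcription start) were found for 6 of the 10 members, PLK1, BORA, CDC25A, CDC25B, CDC25C and MASTL. No entry was found for AURKA, TPX2, WEE1 and PKMYT1. Capitals mark TTTGAA (the CHR core) or CCAAT on either strand, so that TTCAAA and ATTGG are the same letters on the other strand. Each sequence runs 5′ to 3′ along the gene.
PLK1, chr16:23678639-23678938, plus strand: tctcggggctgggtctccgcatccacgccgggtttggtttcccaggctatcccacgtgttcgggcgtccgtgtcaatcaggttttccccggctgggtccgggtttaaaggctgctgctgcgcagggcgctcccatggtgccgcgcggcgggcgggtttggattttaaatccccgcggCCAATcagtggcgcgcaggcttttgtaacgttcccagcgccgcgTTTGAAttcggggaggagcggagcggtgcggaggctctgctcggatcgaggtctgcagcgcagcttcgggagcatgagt
BORA, chr13:72727673-72727972, plus strand: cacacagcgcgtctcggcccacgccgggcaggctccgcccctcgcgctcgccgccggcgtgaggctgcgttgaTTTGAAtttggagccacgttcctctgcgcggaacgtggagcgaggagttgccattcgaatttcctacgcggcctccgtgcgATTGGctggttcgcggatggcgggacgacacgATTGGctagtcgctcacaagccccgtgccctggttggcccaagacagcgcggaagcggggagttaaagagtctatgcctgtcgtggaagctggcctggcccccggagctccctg
MASTL, chr10:27155102-27155401, plus strand: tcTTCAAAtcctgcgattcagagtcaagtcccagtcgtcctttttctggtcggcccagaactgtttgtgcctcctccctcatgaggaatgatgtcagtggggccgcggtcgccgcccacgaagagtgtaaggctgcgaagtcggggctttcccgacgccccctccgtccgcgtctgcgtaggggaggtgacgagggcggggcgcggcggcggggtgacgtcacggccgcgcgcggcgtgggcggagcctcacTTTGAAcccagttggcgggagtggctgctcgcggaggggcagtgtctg
CDC25C, chr5:138331755-138332054, minus strand, 1 of 4 windows of this gene: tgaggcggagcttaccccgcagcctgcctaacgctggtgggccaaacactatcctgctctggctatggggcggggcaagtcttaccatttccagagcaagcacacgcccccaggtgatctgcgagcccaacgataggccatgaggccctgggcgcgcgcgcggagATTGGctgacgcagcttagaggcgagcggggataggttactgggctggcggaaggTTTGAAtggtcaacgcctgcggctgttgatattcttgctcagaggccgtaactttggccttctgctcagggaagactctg
Counted from the transcription start, PLK1 held TTTGAA at −29 to −24 and CCAAT at −73 to −69. CDC25C had TTTGAA at nearly the same place in the window shown, at −30 to −25, and CCAAT farther from the start, on the other strand, at −85 to −81. BORA had TTTGAA far from its start, at −177 to −172, and CCAAT on the other strand at −96 to −92 and −64 to −60. MASTL had TTTGAA just behind its start, at 3 to 8, and on the other strand at −248 to −243, and no CCAAT. None of the 4 CDC25B windows and not the CDC25A window held TTTGAA, whereas CCAAT was in 2 of the 4 CDC25B windows and at −110 and −58 in CDC25A. Of 35116 windows of the same length, 15.2% held TTTGAA on some strand, 34.6% held CCAAT and 5.9% held both. A match describes letters in a window and is no evidence of binding.

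The libraries held 16487394 to 30140550 read pairs on genes, with the FDI6 set at the lower end, at 16487394 to 21039750. Between 1.73% and 3.03% of pairs were not aligned in the single knockdown and compound sets, against 7.68% to 7.92% in siControl_Both and 9.09% to 10.9% in siBoth. Whether this difference bears on the siBoth values was not tested. Keratin genes expected in this line were abundant (KRT8 at 1599 to 5656 normalized CPM, the read count scaled to the size of the library), whereas CD3E was at 0 and DCN, PTPRC and CD68 reached at most 0.127, 0.232 and 0.190 CPM, and among the other markers checked EPCAM ranged from 1.67 to 37.6 CPM and COL1A1 from 4.91 to 58.8 CPM. The knockdowns themselves were seen in the counts: MYBL2 was at 4.15% of the control mean in siMYBL2 and 4.91% in siBoth, and FOXM1 at 9.63% in siFOXM1 and 9.67% in siBoth. The siMYBL2 libraries also had FOXM1 at 60.2% of the control mean, at 58.2 to 89.9 CPM against 108 to 139 CPM. The part of this lower FOXM1 in the members' values was not tested. In the FDI6 libraries MYBL2 was at 70.1% and FOXM1 at 77.6% of the control means. FOXM1 exons are overlapped over 15.9% of their bases by ITFG2 on the other strand, and the strand setting of the authors' counting is not given in the sources used here.

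In siMYBL2 libraries PLK1, BORA and CDC25B were lower. Of the inhibitory kinases WEE1 was higher, below the fold threshold, while PKMYT1 had a log2 fold change of −0.54 that did not pass the adjusted p. PKMYT1 passed it with the replicate block, and without siControl replicate 4. Calls in each treatment comparison needed an adjusted p under 0.05 (edgeR's quasi-likelihood test with Benjamini-Hochberg adjustment over all genes tested) and a fold change over 1.5. With siMYBL2, 3 of the 10 members were called lower (PLK1, BORA and CDC25B), against 3.52% of 16065 genes, and none higher, against 4.38%. By the adjusted p alone 5 were lower, AURKA and MASTL being the other two, against 9.53% of all genes, and WEE1 was higher, against 8.53%. DESeq2 also called 3 members lower and 0 higher, among 1409 genes called in either direction. At an unadjusted p under 0.05, 8 members were lower and 1 higher, where 2619 genes were lower and 2558 higher. The median log2 fold change was −0.49 over the 10 members and 0.01 over all genes.

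FOXM1 knockdown left most members at control level. The one call was WEE1, higher, where 0.0755% of 15892 genes were called in that direction, and no member was called lower, against 0.591% of genes. The adjusted p alone gave the same 0 lower, against 1.09%, and 1 higher, against 0.277%. BORA was the exception among tools and fits: DESeq2, with 163 genes called in either direction, called it lower. So did the fit with the replicate number as a block, in which 1.47% of genes were called lower. With that block TPX2 passed the adjusted p as well (1.05e-05), short of the fold threshold (log2 fold change −0.20). At an unadjusted p under 0.05, BORA was lower and WEE1 higher, where 1124 genes were lower and 936 higher. The median log2 fold change was −0.04 over the members and 0.00 over all genes.

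With siBoth, PLK1, BORA and TPX2 were called lower, against 3.64% of 15812 genes, and none was called higher, against 2.8%. CDC25B and MASTL passed the adjusted p as well, making 5 lower against 7.77% of genes, and WEE1 was again the 1 higher, against 4.55%. The fold changes of CDC25B (1.489) and MASTL (1.497) lay just under the threshold. DESeq2 called both, which gave 5 members lower and 0 higher, among 1191 genes called in either direction. At an unadjusted p under 0.05, 6 members were lower and 1 higher, where 2506 genes were lower and 2177 higher. The median log2 fold change was −0.43 over the members and 0.02 over all genes.

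With FDI-6, the counts of members called are given beside the shares over all genes. No member was called by edgeR, where 5.77% of 15240 genes were called lower and 8% higher. Shares of this size would make few calls among the members. DESeq2 called 0 members as well, among 1814 genes called in either direction. By the adjusted p alone PLK1 and AURKA were lower, 2 members against 17.9% of all genes, and 0 were higher, against 21%. Of the members, 5 were lower and 0 higher at an unadjusted p under 0.05, where 3476 genes were lower and 3794 higher, together 47.7%. The median log2 fold change was −0.15 over the members, against −0.01 over all genes. In bulk RNA, fewer cells in G2 or mitosis and less RNA of a gene per cell cannot be told apart, and this holds for every change given here.

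**Figure D1:**
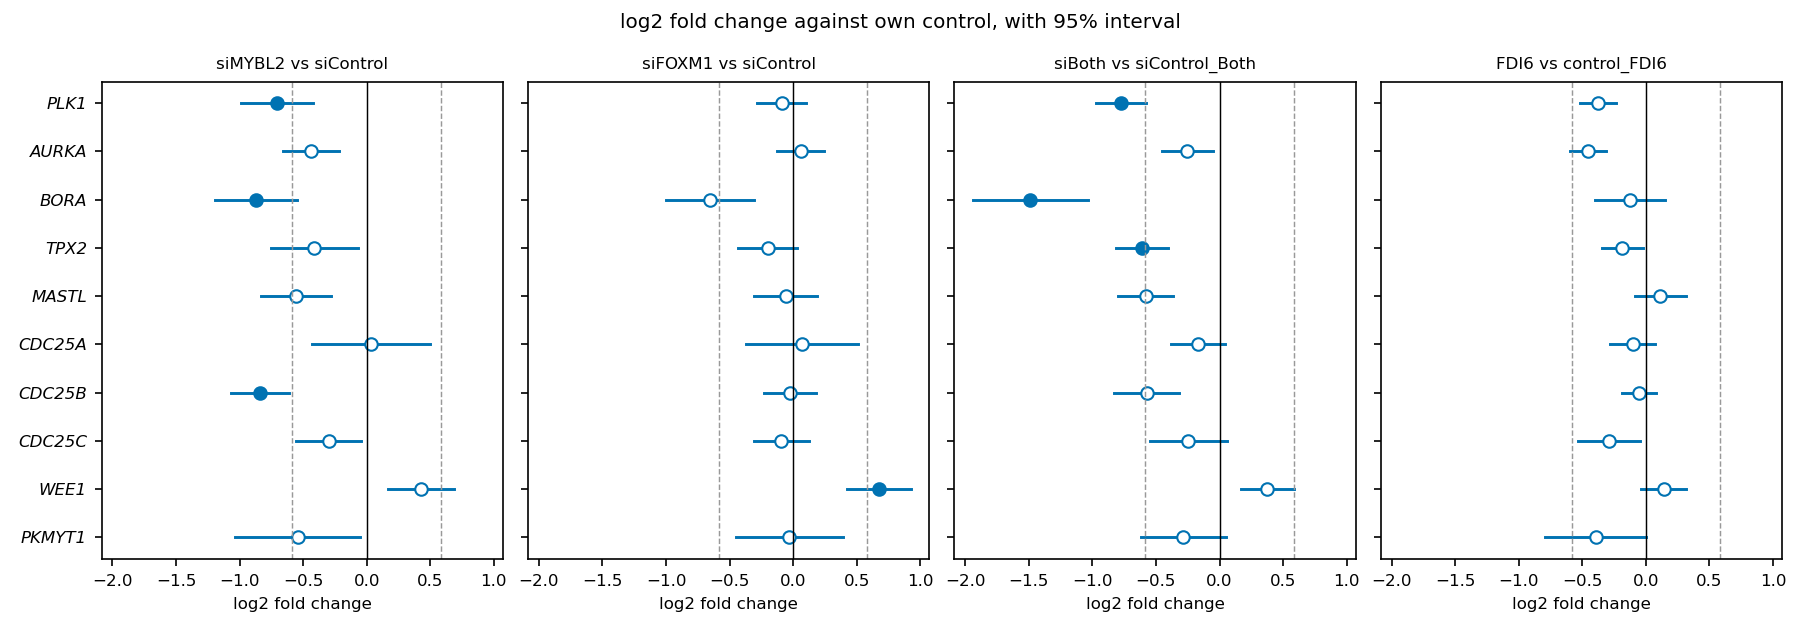
log2 fold change of each member against its own control group (horizontal axis, same scale in the 4 panels), as points with 95% intervals from edgeR. Filled points were called, open points were not, and dashed lines mark a 1.5-fold change. BORA in siBoth lay farthest from 0, at −1.49, and WEE1 was the one member to the right of 0 with its interval clear of 0, in all knockdown panels.

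PLK1, the polo-like kinase that drives mitotic entry and spindle assembly (chr16:23677656-23690367, hg38, 10 exons in the canonical transcript), was among the most clearly separated members. Its level was 68.2, 82.9, 91.0 and 61.6 CPM in siMYBL2 against 125, 127, 134 and 109.9 CPM in siControl. The groups did not overlap, and the highest siMYBL2 library lay below the lowest control. PLK1 fell 1.63-fold (log2 fold change −0.71, SE 0.13, edgeR adjusted p = 0.0059). In siFOXM1 it was at 108, 120.3, 130.4 and 109.8 CPM, inside the control range but for the lowest libraries, and did not pass (log2 fold change −0.09, 95% interval −0.28 to 0.10, adjusted p = 0.754). The siBoth libraries had 72.2, 80.0 and 82.6 CPM against 132, 143 and 127 CPM in siControl_Both, again with no overlap, and PLK1 fell 1.71-fold (log2 fold change −0.78, SE 0.09, adjusted p = 0.00169). FDI6 libraries had 158, 171 and 151 CPM against 208, 205 and 211 CPM, a fall of 1.30-fold that passed the adjusted p but not the fold threshold (log2 fold change −0.38, SE 0.06, adjusted p = 0.000918). Thus the compound groups did not overlap, although both stood above every knockdown library and its controls. The opposite strand carries ERN2 and a second gene over 12.8% of the PLK1 exon bases.

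**Figure D2:**
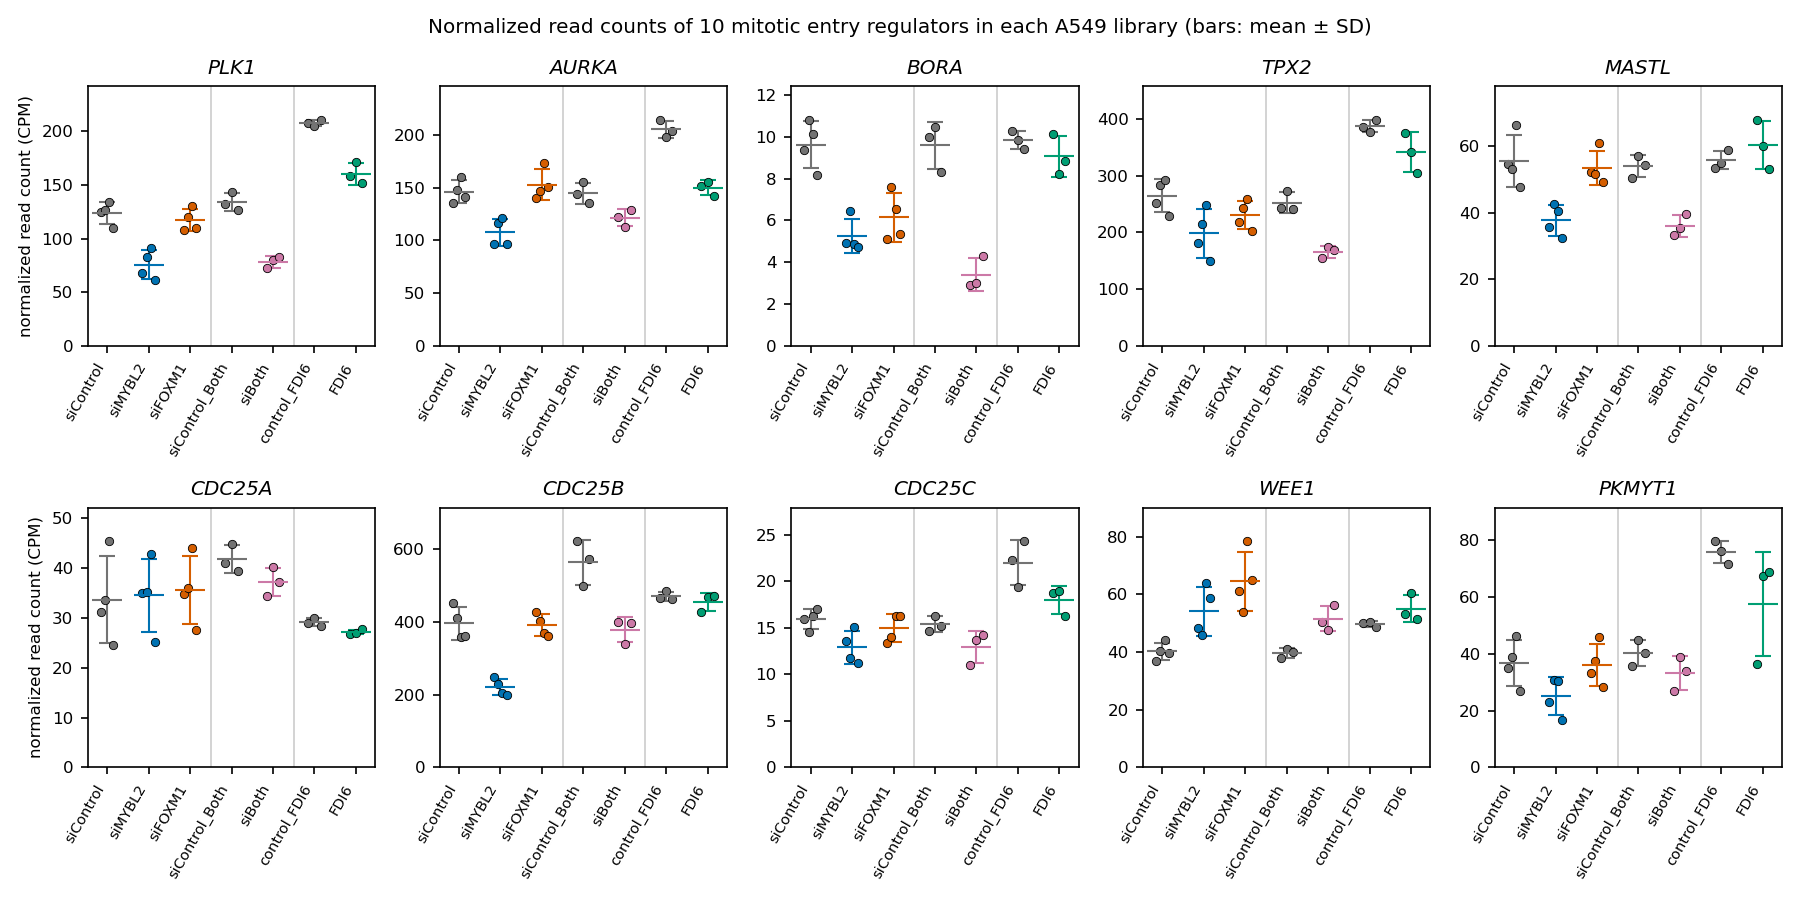
Normalized read counts (vertical axis, CPM from 0) of the 10 members in every library, as points by group, with bars for the mean ± SD (n = 4 in siControl, siMYBL2 and siFOXM1, n = 3 in the others). Gray points are controls, and vertical lines part the 3 experiments. PLK1 in siMYBL2 lies at 61.6 to 91.0 CPM, below all controls, and WEE1 lies above its controls in each treated group.

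BORA, the Aurora A cofactor that lets it activate PLK1 (chr13:72727749-72756198, hg38), had the lowest level of the set and the largest fall. It was at 4.90, 6.47, 4.87 and 4.75 CPM in siMYBL2 and at 5.09, 7.61, 6.53 and 5.34 CPM in siFOXM1, against 9.37, 10.8, 10.1 and 8.16 CPM in siControl. Neither knockdown overlapped the controls. MYBL2 knockdown lowered BORA 1.83-fold (log2 fold change −0.87, SE 0.14, adjusted p = 0.00402). With siFOXM1 the log2 fold change was −0.65 (SE 0.15) and the adjusted p 0.0883. The result by edgeR changed with the fit: blocking on the replicate number gave an adjusted p of 3.31e-06, and DESeq2 gave 0.00436, at nearly the same log2 fold change of −0.66.

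The siBoth libraries had BORA at 2.92, 3.00 and 4.31 CPM, against 9.96, 10.5 and 8.32 CPM in siControl_Both. The highest treated library lay far below the lowest control. BORA fell 2.81-fold (log2 fold change −1.49, SE 0.20, adjusted p = 0.00357), the 49th lowest log2 fold change of the 15812 genes tested. In FDI6 it was at 10.1, 8.21 and 8.85 CPM against 10.2, 9.84 and 9.43 CPM, the groups overlapped, and the log2 fold change of −0.12 had a 95% interval of −0.40 to 0.15. These values rest on few reads, 71 to 291 pairs per library. DIS3, an exosome ribonuclease gene on the opposite strand, overlaps 37.0% of the BORA exon bases, and DIS3 itself had log2 fold changes of −0.32 in siMYBL2 (adjusted p = 0.00549), −0.01 in siFOXM1 (adjusted p = 0.961) and −0.38 in siBoth (adjusted p = 0.0292). Its part in the BORA values was not tested.

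AURKA, the Aurora A kinase (chr20:56369389-56392337, hg38), was lower in siMYBL2 and FDI6 and did not pass in siFOXM1. It was at 96.5, 117, 121 and 96.4 CPM in siMYBL2 against 135, 148, 161 and 141 CPM in siControl, with no overlap. The fall was 1.36-fold, past the adjusted p and short of the fold threshold (log2 fold change −0.44, SE 0.10, adjusted p = 0.0149). In siFOXM1 AURKA was at 141, 147, 174 and 151 CPM, so that 3 of 4 libraries were above the control of the same number (log2 fold change 0.06, 95% interval −0.13 to 0.24, adjusted p = 0.859). The siBoth libraries had 122, 113 and 129 CPM against 144, 155 and 136 CPM. These groups stood apart, but the log2 fold change of −0.25 (SE 0.09) had an adjusted p of 0.0977, and with the replicate block it was 0.0175. FDI6 libraries had 152, 156 and 142 CPM against 214, 198 and 204 CPM, and AURKA fell 1.37-fold (log2 fold change −0.46, SE 0.06, adjusted p = 0.000252), again short of the fold threshold.

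TPX2, the spindle protein that activates Aurora A (chr20:31739271-31801805, hg38), was called in siBoth and in no other treatment. In siBoth it was at 154, 173 and 169 CPM against 243, 273 and 241 CPM. The groups lay far apart and TPX2 fell 1.52-fold (log2 fold change −0.61, SE 0.09, adjusted p = 0.00537). Being close to the fold threshold, the call was lost with upper-quartile scaling (log2 fold change −0.53) and without siBoth replicate 1 (−0.57) or siControl_Both replicate 2 (−0.55), while the adjusted p stayed below 0.05. In siMYBL2 TPX2 ranged widely, at 181, 215, 249 and 149.8 CPM against 252, 284, 292 and 229 CPM, and each library was lower than the control of its own number although the groups overlapped. The log2 fold change of −0.41 (SE 0.15) did not pass (adjusted p = 0.0966), whereas with the replicate block it passed the adjusted p, at 1.79e-05. By DESeq2 the adjusted p was 0.0485, and 1 of the 8 edgeR fits that left out a library passed as well (0.0374). TPX2 in siFOXM1 was at 219, 242, 259 and 203 CPM (log2 fold change −0.20, SE 0.10, adjusted p = 0.476, and 1.05e-05 with the block). In FDI6 it was at 375, 342 and 305 CPM against 386, 376 and 398 CPM, with no overlap (log2 fold change −0.19, SE 0.07, adjusted p = 0.0626). The adjusted p was 0.029 with upper-quartile scaling and under 0.05 in 1 of the 6 edgeR fits that left out a library, short of the fold threshold.

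MASTL, the Greatwall kinase that restrains PP2A-B55 (chr10:27154824-27187953, hg38), was lower where MYBL2 was knocked down and did not pass in siFOXM1 or FDI6. It was at 35.6, 42.6, 40.4 and 32.2 CPM in siMYBL2 against 54.6, 53.1, 66.4 and 47.6 CPM in siControl, with no overlap. MASTL fell 1.47-fold (log2 fold change −0.55, SE 0.12, adjusted p = 0.0149). The siBoth libraries had 33.3, 35.2 and 39.5 CPM against 50.4, 57.0 and 54.3 CPM, also without overlap (log2 fold change −0.58, SE 0.10, adjusted p = 0.00845). Both values sat at the fold threshold, and the call was gained in siMYBL2 without siMYBL2 replicate 2 or 3 or siControl replicate 4, and in siBoth with DESeq2, with no filter on low counts, or without siBoth replicate 3 or siControl_Both replicate 1. Without siMYBL2 replicate 1 the adjusted p in siMYBL2 was 0.0509. In siFOXM1 MASTL was at 52.3, 51.5, 60.8 and 49.1 CPM (log2 fold change −0.06, 95% interval −0.31 to 0.19, adjusted p = 0.904). FDI6 libraries had 67.8, 59.9 and 53.2 CPM against 53.4, 54.9 and 58.7 CPM, which overlapped (log2 fold change 0.11, SE 0.09, adjusted p = 0.365). ACBD5 and YME1L1 overlap 16.5% of the MASTL exon bases on the other strand. ACBD5 had log2 fold changes of 0.46 in siMYBL2 (adjusted p = 0.0453) and 0.14 in siBoth (adjusted p = 0.277). YME1L1 had −0.03 in siMYBL2 (adjusted p = 0.794) and −0.20 in siBoth (adjusted p = 0.123). The part of these genes in the MASTL values was not tested.

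Of the CDC25 phosphatases, which remove the inhibitory phosphates from CDK1, CDC25B was lower after MYBL2 knockdown, while CDC25A and CDC25C did not pass the test in any treatment. CDC25B (chr20:3786772-3806121, hg38) was at 249.8, 229, 204 and 201 CPM in siMYBL2, against 452, 412, 359.7 and 361 CPM in siControl. No treated library came near the controls. CDC25B fell 1.79-fold (log2 fold change −0.84, SE 0.10, adjusted p = 0.000946), the smallest p of the 10 members in that comparison. In siFOXM1 it was at 427, 403, 371 and 362 CPM, nearly the control values (log2 fold change −0.03, 95% interval −0.23 to 0.18, adjusted p = 0.959). The siBoth libraries had 401, 339 and 397 CPM against 622, 499 and 573 CPM, apart from each other (log2 fold change −0.57, SE 0.11, adjusted p = 0.0155). As the controls of the double knockdown were themselves higher than those of the single knockdowns, 2 of the 3 siBoth libraries lay within the siControl range, and all 3 lay above every siMYBL2 library. The siBoth call was gained with DESeq2 and without siBoth replicate 1 or 3 or siControl_Both replicate 2. Of the 6 siBoth fits that left out a library, 4 kept an adjusted p under 0.05, and the highest was 0.0574. In FDI6 CDC25B was at 427, 468 and 472 CPM against 466, 486 and 462 CPM (log2 fold change −0.05, 95% interval −0.18 to 0.08).

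CDC25C (chr5:138285269-138338355, hg38), the family member that PLK1 activates at mitotic entry, was at 13.6, 11.8, 15.1 and 11.2 CPM in siMYBL2 and at 15.9, 14.5, 16.3 and 17.0 CPM in siControl. One siMYBL2 library reached into the control range. The log2 fold change was −0.30 (SE 0.11, adjusted p = 0.104), and with the replicate block the adjusted p was 0.00977. Its values in the other comparisons were −0.09 in siFOXM1, −0.25 in siBoth and −0.29 in FDI6, with adjusted p from 0.0555 to 0.787. CDC25A (chr3:48157146-48188417, hg38), which acts at the start of S phase as well as at mitosis, had log2 fold changes of 0.04 in siMYBL2, 0.07 in siFOXM1, −0.17 in siBoth and −0.10 in FDI6. It varied more among the siControl libraries, from 24.4 to 45.2 CPM, than between any treated group and its controls. The 95% intervals of CDC25A ran from −0.43 to 0.50 in siMYBL2 and from −0.38 to 0.05 in siBoth, which leaves room for a change of moderate size in either.

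WEE1, the nuclear kinase that holds CDK1 inactive (chr11:9573670-9593457, hg38), was higher than its controls in every library of all treated groups. It was at 61.1, 53.9, 78.3 and 64.9 CPM in siFOXM1 and at 48.2, 45.8, 63.8 and 58.7 CPM in siMYBL2, against 36.9, 40.5, 44.1 and 39.8 CPM in siControl. Every knockdown library was above every control. WEE1 rose 1.60-fold in siFOXM1 (log2 fold change 0.67, SE 0.11, adjusted p = 0.0236). Although its log2 fold change stayed between 0.57 and 0.75 when single libraries were left out, the call was lost without siFOXM1 replicate 1, 3 or 4 or without siControl replicate 1, 2 or 3, where the adjusted p ranged from 0.0346 to 0.0948 and the log2 fold change without siFOXM1 replicate 3 (0.57) fell below the fold threshold. In siMYBL2 WEE1 rose 1.35-fold, past the adjusted p only (log2 fold change 0.43, SE 0.12, adjusted p = 0.032), and 3 of the 8 fits that left out a library kept an adjusted p under 0.05, those without siMYBL2 replicate 1 or 2 or siControl replicate 3. The siBoth libraries had 50.3, 47.8 and 56.3 CPM against 37.8, 41.0 and 40.1 CPM, with no overlap, and WEE1 rose 1.30-fold (log2 fold change 0.38, SE 0.09, adjusted p = 0.0319). That p stayed under 0.05 in 1 of 6 such fits, without siBoth replicate 2, and ranged from 0.0406 to 0.0986. In FDI6 WEE1 was at 53.1, 60.4 and 51.6 CPM against 50.2, 50.6 and 48.7 CPM. These groups did not overlap either, but the difference did not pass (log2 fold change 0.14, 95% interval −0.04 to 0.32, adjusted p = 0.193).

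PKMYT1, the membrane-bound partner of WEE1 in restraining CDK1 (chr16:2968024-2980479, hg38), had log2 fold changes below 0 in all 4 treatments, none of which passed in the main fit. It was at 23.1, 30.7, 30.4 and 16.6 CPM in siMYBL2 against 35.1, 38.8, 46.2 and 26.8 CPM in siControl. The groups overlapped, yet each siMYBL2 library was below the control of its own number. The log2 fold change was −0.54 (SE 0.22, adjusted p = 0.122), and with the replicate block the adjusted p was 1.26e-05. The siMYBL2 call was gained without siControl replicate 4 (log2 fold change −0.69, adjusted p = 0.0476). In siFOXM1 the log2 fold change was −0.03 (95% interval −0.45 to 0.39) and in siBoth −0.28 (SE 0.15, adjusted p = 0.232, and 0.0106 with the block). FDI6 replicate 1 had PKMYT1 at 36.5 CPM, whereas FDI6 replicates 2 and 3 had 67.3 and 68.9 CPM and the controls 79.5, 76.0 and 71.7 CPM. The log2 fold change of −0.40 (adjusted p = 0.104) was −0.15 without FDI6 replicate 1. KREMEN2 and PAQR4 overlap 31.9% of the PKMYT1 exon bases on the other strand. PAQR4 was called lower in siMYBL2 (log2 fold change −0.63, adjusted p = 0.0466) and KREMEN2 in FDI6 (log2 fold change −1.06, adjusted p = 0.00597). The part of either gene in the PKMYT1 values was not tested.

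Levels of different genes were compared per length, as CPM per kilobase of exon, counting each base in any annotated exon of a gene once. In siControl CDC25B was highest, at 101.5 ± 11.4 CPM per kilobase (SD, n = 4), followed by TPX2 at 73.3 ± 8.12, AURKA at 49.96 ± 3.70 and PLK1 at 26.1 ± 2.16, with no overlap between neighbours. MASTL at 11.9 ± 1.69 overlapped CDC25A at 8.10 ± 2.09, which overlapped PKMYT1 at 7.39 ± 1.63. CDC25C at 4.79 ± 0.32 and WEE1 at 4.36 ± 0.32 overlapped as well, and BORA was lowest at 3.02 ± 0.36, below both. The order was the same in siControl_Both, and in control_FDI6 PKMYT1 at 15.2 ± 0.79 stood above MASTL at 11.9 ± 0.59. Genes on the other strand overlap 37.0% of the BORA and 31.9% of the PKMYT1 exon bases, where pairs may be uncounted. Per-length levels of members with such overlaps may therefore be too low, and their place in the order was not tested for this.

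The direct comparison of siMYBL2 with siFOXM1 used no control libraries. It asked which members differ between both knockdowns. PLK1 and CDC25B were called lower in siMYBL2, against 4.34% of 16172 genes, and no member higher, against 5.86%. AURKA and MASTL joined them by the adjusted p alone, 4 members lower against 11.8% of genes and 0 higher against 11.4%. DESeq2 called 2 members lower and 0 higher, among 1815 genes called in either direction. At an unadjusted p under 0.05, 5 members were lower and 0 higher, where 2947 genes were lower and 2894 higher. CDC25B differed most, at a log2 difference of −0.82 (SE 0.09, adjusted p = 0.000372). PLK1 differed by −0.62 (SE 0.13, adjusted p = 0.00769), and its call was lost for its fold with upper-quartile scaling (−0.58) and without siMYBL2 replicate 1 (−0.57), siMYBL2 replicate 4 (−0.53) or siFOXM1 replicate 3 (−0.56). The differences of AURKA and MASTL were both −0.50, with adjusted p of 0.00752 and 0.00921. For BORA the difference was −0.22 with a 95% interval of −0.60 to 0.16, and for WEE1 −0.25 with an interval of −0.56 to 0.06. WEE1 was lower in siMYBL2 than in siFOXM1 in each of the 4 same-number pairs, and with the replicate block its adjusted p was 0.000829, short of the fold threshold. TPX2 passed the adjusted p with the block in the same way (log2 difference −0.22, adjusted p = 0.343, and 0.00216 with the block), as did PKMYT1 (log2 difference −0.52, adjusted p = 0.109, and 4.36e-05 with the block).

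**Figure D3:**
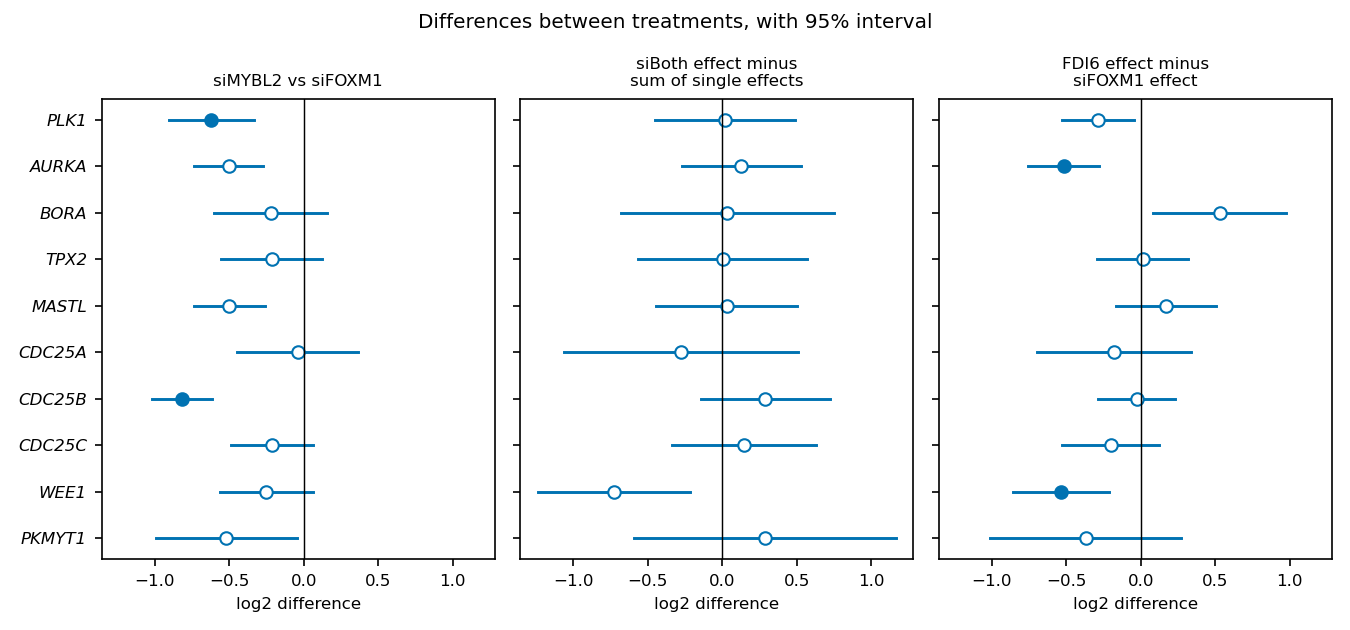
Differences on the log2 scale (horizontal axis, same scale in the 3 panels) between siMYBL2 and siFOXM1, between the siBoth effect and the sum of the single effects, and between the FDI6 and siFOXM1 effects, with 95% intervals. Filled points were called, by adjusted p and fold in the first panel and by adjusted p in the others. CDC25B at −0.82 stands out in the first panel, WEE1 at −0.73 in the second, and AURKA and WEE1 at −0.52 and −0.54 in the third.

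Whether the double knockdown differed from the sum of both single knockdowns was tested across all siRNA libraries, with calls by the adjusted p alone. No gene was called, 0% of 17336 lower and 0% higher, and so no member was, while 266 genes were lower and 283 higher at an unadjusted p under 0.05 and DESeq2 called 1 gene, not a member. BORA came to −1.49 in siBoth where −0.87 and −0.65 add to −1.53, and the tested difference was 0.03, with a 95% interval of −0.68 to 0.75. For PLK1 the difference was 0.02 (−0.45 to 0.49), for TPX2 0.00 (−0.56 to 0.57) and for MASTL 0.03 (−0.44 to 0.50). AURKA differed by 0.13, CDC25C by 0.15, CDC25B and PKMYT1 by 0.29 and CDC25A by −0.28, with intervals that all held 0. These intervals are wide, and effects well short of or beyond the sum cannot be told from it. WEE1 lay farthest from the sum: the single effects of 0.43 and 0.67 add to 1.10, while siBoth gave 0.38. The difference was −0.73 (SE 0.24, 95% interval −1.24 to −0.21), with an unadjusted p of 0.00819 and an adjusted p of 0.999. With the replicate block, in which 0.733% of genes were called lower, WEE1 was called (log2 difference −0.71, SE 0.14, adjusted p = 0.0114). The single and double knockdowns were separate experiments with their own controls. A departure from the sum therefore cannot be told apart from a difference between experiments.

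A similar contrast set the effect of FDI-6 against that of FOXM1 knockdown, each relative to its own controls. AURKA and WEE1 were called lower in FDI6, against 8.64% of 17026 genes, and no member higher, against 12.3%. DESeq2 called the same numbers of members, 2 and 0, among 4080 genes called in either direction. At an unadjusted p under 0.05, 3 members were lower and 1 higher, where 2737 genes were lower and 3112 higher. AURKA differed by −0.52 (SE 0.11, adjusted p = 0.00508). The compound lowered it, while its log2 fold change of 0.06 in siFOXM1 did not pass. WEE1 differed by −0.54 (SE 0.15, adjusted p = 0.0208), and its call was lost without FDI6 replicate 1 (adjusted p = 0.0501), FDI6 replicate 3 (0.0518) or control_FDI6 replicate 1 (0.0502). BORA differed in the other direction, by 0.53 (SE 0.21, adjusted p = 0.0857), and was called without siFOXM1 replicate 2 or siControl replicate 4. With the replicate block BORA was called higher (adjusted p = 0.0096), against 20% of genes, and PLK1 (log2 difference −0.29, adjusted p = 0.00695) joined AURKA and WEE1 as lower, against 18.3%. The siRNA and compound libraries were separate experiments, with FDI-6 given for 24 h, so the difference between agents cannot be told apart from one between experiments.

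Across the 24 libraries, with the mean of each experiment taken off, each member had 1 other gene whose log2 CPM was most like its own. Over 11055 genes (mean CPM of 5 or more), the highest Pearson correlation with PLK1 was that of AURKB (0.982), with BORA that of CCNB1 (0.943), with TPX2 that of RRM2 (0.947) and with AURKA that of KIF22 (0.940). MASTL was closest to MCMBP (0.973), CDC25B to ALG3 (0.959), PKMYT1 to CCDC137 (0.959), CDC25A to TPM1 (0.877) and CDC25C to HMGB2 (0.846). WEE1 had the weakest best match, PDPR at 0.790. These are descriptions over libraries that share treatments and controls. In a published list of 51 genes that mark cells in G2 and mitosis, without the members, 17 were called lower in siMYBL2, 5 in siFOXM1, 29 in siBoth and 4 in FDI6, and none higher, where 3.52%, 0.591%, 3.64% and 5.77% of all genes tested were called lower. Of 42 tested genes of the matching S phase list, 7, 1, 6 and 0 were called lower in the same order, and 1 was called higher, in FDI6. The part of cell cycle phase in the members' values was not tested.

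Around these members, CDK1 and its cyclins CCNB1 and CCNA2 were called lower in each knockdown, and the other genes of that core in some knockdowns or in none. Of 9 genes in the list, 4 were called lower in siMYBL2, 3 in siFOXM1 and 5 in siBoth, and none was called higher. In FDI6 none was called, while 4 were lower and 1 higher by the adjusted p alone, against 17.9% and 21% of all genes. Over all genes 3.52%, 0.591%, 3.64% and 5.77% were called lower in siMYBL2, siFOXM1, siBoth and FDI6. The list's median log2 fold changes were −0.53, −0.12, −0.83 and −0.14 in that order. In siMYBL2 the CDK subunit CKS1B was at 49.2 ± 11.9 CPM against 139.6 ± 4.75 CPM (SD, n = 4; log2 fold change −1.50, SE 0.14, adjusted p = 0.000337). CCNB1, the cyclin that activates CDK1 at mitosis, fell in siMYBL2 (log2 fold change −0.77), siFOXM1 (−0.68) and siBoth (−1.22). The kinase gene CDK1 itself fell in siMYBL2 (log2 fold change −0.62, adjusted p = 0.0035), in siFOXM1 (log2 fold change −0.69, SE 0.05, adjusted p = 0.000274) and in siBoth (log2 fold change −1.10, SE 0.11, adjusted p = 0.000921). CCNA2, cyclin A2, was at 27.5 ± 1.36 CPM in siBoth against 75.7 ± 7.89 CPM (SD, n = 3; log2 fold change −1.46, SE 0.10, adjusted p = 0.000257).

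In the branch downstream of MASTL, none of the 12 genes was called in any of the 4 treatments. The shares over all genes given above would make few calls among 12. By the adjusted p alone 3 passed in siMYBL2, 0 in siFOXM1, 2 in siBoth and 5 in FDI6. Of all genes, 9.53% were lower and 8.53% higher by it in siMYBL2, 7.77% and 4.55% in siBoth, and 17.9% and 21% in FDI6. Among 12 relatives of the polo, aurora and NEK kinases, 11 were tested in siMYBL2, siFOXM1 and FDI6. Of these relatives 1 was called lower in siMYBL2, 1 in siFOXM1 and 4 in siBoth, against 3.52%, 0.591% and 3.64% of all genes. In FDI6 2 were called higher, against 8% of all genes, and 0 lower, against 5.77%. Aurora B (AURKB), the kinase of the chromosomal passenger complex, fell in siMYBL2 (log2 fold change −0.89, SE 0.19, adjusted p = 0.0121) and siBoth (−0.97, SE 0.11, adjusted p = 0.0021). NEK2, a centrosome kinase, fell in siFOXM1 (−0.92, SE 0.08, adjusted p = 0.000572) and siBoth (−1.19, SE 0.10, adjusted p = 0.000494). NEK7 fell in siBoth (−0.64) and rose in FDI6 (0.89), where PLK3 rose as well (0.63).

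Partners of Aurora A and PLK1 went both ways. Of 10 listed, GTSE1, a microtubule protein, fell in siMYBL2 (log2 fold change −0.89) and siBoth (−1.32), and FRY rose in siMYBL2 from 1.73 ± 0.77 to 6.15 ± 1.56 CPM (SD, n = 4; log2 fold change 1.84, SE 0.31, adjusted p = 0.00433). None was called in siFOXM1, and in FDI6 OPTN (0.92) and PPP1R12A (0.61) rose. Of 18 checkpoint kinases and 14-3-3 proteins, 2 fell in siMYBL2 and 2 in siBoth: YWHAG, a 14-3-3 protein (−1.22 and −1.25), and TOPBP1, an activator of ATR (−0.65 and −0.62). In FDI6 RAD9A fell (−0.67) and ATM rose (0.60). Of 11 genes that act in the turnover of these regulators, FBXO5, an inhibitor of the anaphase-promoting complex, fell in siMYBL2 (−0.81) and siBoth (−0.73). Over all genes, 3.52% were called lower in siMYBL2, 0.591% in siFOXM1, 3.64% in siBoth and 5.77% in FDI6. Called higher were 4.38% in siMYBL2 and 8% in FDI6. Shares of this size would make few calls in lists this short, so calls of 1 or 2 genes are not read as results about these lists.

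**Figure D4:**
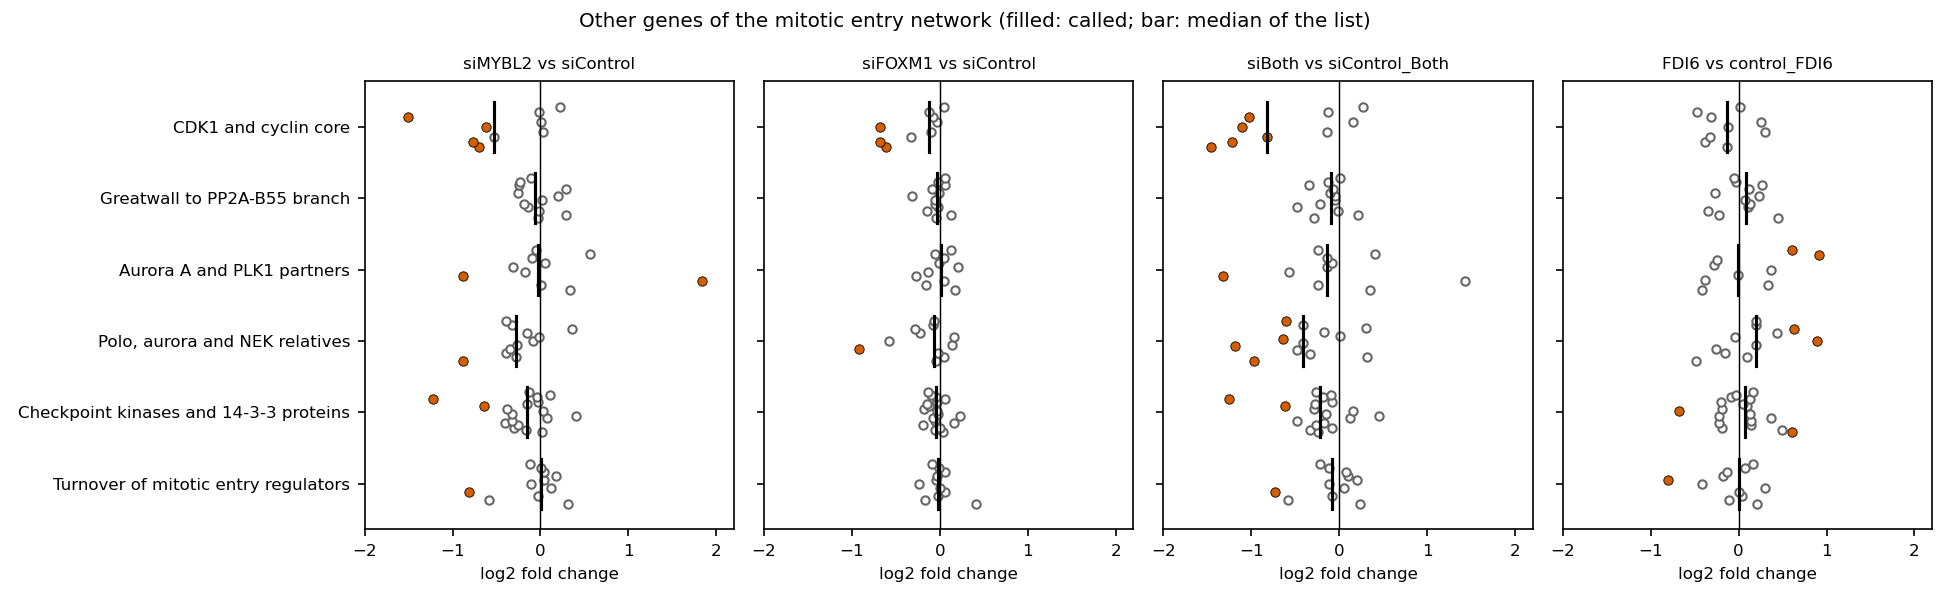
log2 fold change (horizontal axis) of each tested gene in 6 lists of mitotic entry genes other than the members, in the 4 treatment comparisons. Filled points were called, open points were not, and black bars are list medians. The CDK1 and cyclin core has the lowest median in each knockdown, down to −0.83 in siBoth, and the Greatwall to PP2A-B55 list has no filled point.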

How the data were processed

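RNA-seq was made from poly(A) RNA of A549 cells in 24 libraries, sequenced as read pairs. Per the labels and the study's methods, the authors trimmed the reads with Trim Galore, aligned them to hg38 with STAR and counted read pairs on GENCODE genes with HTSeq, and the deposited values are these raw counts. Pairs that fall on more than 1 gene are dropped by HTSeq, so overlapping genes are counted in part, and its rows for unassigned pairs (18.5% to 26.2% of pairs per library) were kept out of library sizes. Identifiers were matched to GENCODE V44, with 58207 found and 514 not found, and no column belonged to other series (0). Each comparison used edgeR 4.0.16 in R 4.3.3 (TMM scaling, filterByExpr, quasi-likelihood test, Benjamini-Hochberg adjustment over all genes tested) on the libraries of the groups compared, and the contrasts of effects used all libraries they name. SE values are the log2 fold change divided by the root of the F statistic. CPM values of single libraries were scaled with TMM over all 24 libraries. The authors' thresholds were kept, an adjusted p of 0.05 and a 1.5-fold change, whereas the authors named DESeq2 as the tool, which was run here (version 1.42.0) as an alternative. The fitting code was tested on simulated data. Alternatives were RLE and upper-quartile scaling, DESeq2, no filter on low counts, a minimum of 10 counts per library, a replicate block, and each library left out in turn. No alternative was added later.

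Same-number libraries deviated together in the knockdowns (correlation of deviations from 0.539 to 0.906 over the pairs with siControl, and from 0.553 to 0.688 in the double knockdown), and not in the compound set (−0.288 to 0.161), so values with the replicate block are given for the knockdowns where they change a call. Libraries of a group differed by more than sampling noise (chi-square per gene of 3.57 to 62.8). The study's methods call the replicates biological, and the labels do not say whether they were separate cultures, so p-values measure the spread between these libraries.

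The members and the gene lists were chosen with earlier results of these data known. Named genes are all members, MYBL2, FOXM1, the called genes of each pathway list (at most 3 per list and comparison, by size of log2 fold change) and the gene most like each member. A gene that this rule names is not reported here. The G2/M and S phase lists come from Seurat 5.3.0 and were added after values were seen. Promoter sequences are RefSeq's (GRCh38.p14).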

Additional observations from a re-analysis of the deposited data

Results flagged for a closer look

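Of 30 sets of 4 libraries checked (10 members in siControl, siMYBL2 and siFOXM1), 1 had a library far from the others, which is about what chance gives, at 1 in 20 sets. BORA in siMYBL2 replicate 2 was at 6.47 CPM, while the next library was at 4.90 CPM and the lowest at 4.75 CPM, so that its gap made up 0.912 of the range of the group. It still lay below the lowest siControl library. Groups of 3 libraries were not checked.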

How the results depend on the processing

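DESeq2 moved the members called lower to 1 in siFOXM1 and to 5 in siBoth, and the genes called to 29 higher in siFOXM1 and 1 lower in the contrast of siBoth with the sum of single effects. With upper-quartile scaling 1 member was lower in siMYBL2 against siFOXM1, CDC25A turned to a log2 difference of 0.00536 there, and TPX2 turned to −0.0472 in the contrast of FDI6 with siFOXM1. With no filter on low counts 783 genes were higher in siBoth, against 443. With the replicate block genes called higher came to 1234 in siMYBL2 against 704, 167 in siFOXM1 against 12 and 1046 in siBoth against 443, and genes called lower in siFOXM1 to 234 against 94, with 1 member lower. In the contrasts the block gave 127 genes lower and 89 higher for siBoth, with 1 member lower, and 3114 lower and 3409 higher for FDI6 against siFOXM1, with 3 members lower against 2 and 1 higher. The other counts of members called were the same with the block. The cause of these shifts was not tested.

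Leaving out 1 library gave 3 to 5 members lower in siMYBL2 (5 without siControl replicate 4) and in siBoth (5 without siBoth replicate 3), 0 to 1 higher in siFOXM1, 1 to 2 lower in siMYBL2 against siFOXM1, and 1 to 2 lower and 0 to 1 higher in FDI6 against siFOXM1. Genes called ranged from 455 to 796 higher in siMYBL2 (lowest without siMYBL2 replicate 1), 55 to 99 lower (lowest without siFOXM1 replicate 1) and 1 to 16 higher in siFOXM1, 153 to 414 higher in siBoth, and 830 to 1780 lower in FDI6 against siFOXM1. Signs turned only for log2 values near 0: in siMYBL2 CDC25A (−0.11 to 0.21); in siFOXM1 AURKA (−0.00876 to 0.11), CDC25A (−0.0543 to 0.26), CDC25B (−0.0724 to 0.0433), PKMYT1 (−0.16 to 0.11) and MASTL (−0.13 to 0.0438); in siMYBL2 against siFOXM1 CDC25A (−0.17 to 0.0874); in siBoth against the sum PLK1 (−0.0697 to 0.13), BORA (−0.17 to 0.18), TPX2 (−0.11 to 0.13) and MASTL (−0.17 to 0.16); and in FDI6 against siFOXM1 TPX2 (−0.0611 to 0.0923) and CDC25B (−0.0968 to 0.0214). Upper-quartile scaling shifted the median of all genes by at most 0.09. Depth limits BORA most, with 71 to 291 pairs per library.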
